A study of Saccharomyces cerevisiae with 6 samples.

Results

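Translation factors are the proteins that carry the ribosome through initiation, elongation and termination, and the mRNAs of 37 of them were followed here upon depletion of the protein kinase Rio1 in budding yeast. The genes were chosen by name for these roles, with earlier results of these data known but with no measured value in the rule, and all 37 were found among the 7445 features of the count table. RNA was sequenced from 6 cultures of strain PDW2798, a *MATa* strain of W303-1A background that holds *PADH1-OsTIR1-9myc::URA3* together with the allele *RIO1-AID::KanMX4*, grown at 25 °C in YPDA. The AID tag is a degron that responds to auxin, and the plant F-box protein OsTIR1, expressed from the *ADH1* promoter, directs the tagged protein to the proteasome once auxin is present. Of the biological repeats, 3 were treated with a mock and 3 with auxin for 1 h, at 500 µM per the sample labels and with a step down in concentration within the hour per the study's methods. Tag and *OsTIR1* are shared by both groups, and no auxin-treated strain without the degron was analysed here, so that depletion and auxin itself cannot be told apart.

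Translation in yeast begins when eIF2, loaded with GTP and the initiator tRNA, joins the small ribosomal subunit together with eIF1, eIF1A, eIF3 and eIF5. The eIF4 factors and the poly(A)-binding protein Pab1 bring the mRNA, eIF5B joins the subunits, and eIF2B reloads eIF2 with GTP, the step that the kinase Gcn2 inhibits in starved cells. eEF1, eEF2 and the fungal factor eEF3 then drive elongation, and eRF1 with eRF3 releases the finished protein. Rio1 itself is known for its part in the maturation of the small ribosomal subunit and in the control of rDNA transcription.

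The promoters shared an element that the choice of genes did not use. The ribosomal RNA processing element (RRPE), known from genes of ribosome biogenesis, has the palindromic core AAAATTTT, and this core was present within 300 bases before the start codon in 23 of the 37 genes (62.2%). The same window held it in 565 of 6001 protein-coding genes of the reference (9.42%). The 27 matches in the 23 promoters began 96 to 229 bases before the start codon, with a median of 168, and 26 of them lay between 100 and 250 bases. The stretches around the core are shown for genes of each step of translation, on the strand of the gene and 5′ to 3′ (RefSeq, assembly R64), with the core in capitals and 15 bases on either side.
*EFT2*, elongation (chrIV:1243045-1243082): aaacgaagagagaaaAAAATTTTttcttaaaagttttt
*YEF3*, elongation (chrXII:636576-636613): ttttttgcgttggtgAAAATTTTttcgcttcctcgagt
*HYP2*, elongation (chrV:85432-85469): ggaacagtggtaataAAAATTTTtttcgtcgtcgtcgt
*SUP45*, release (chrII:532328-532365, minus strand): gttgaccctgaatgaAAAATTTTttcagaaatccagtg
*TIF4631*, eIF4G (chrVII:823831-823868): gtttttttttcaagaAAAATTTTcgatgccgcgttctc
*TIF5*, eIF5 (chrXVI:648480-648517): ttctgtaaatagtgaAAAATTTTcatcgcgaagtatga
*GCD11*, eIF2 (chrV:205101-205138): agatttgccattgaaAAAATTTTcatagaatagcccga
*GCD1*, eIF2B (chrXV:813838-813875): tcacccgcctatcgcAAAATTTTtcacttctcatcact
*NIP1*, eIF3 (chrXIII:895565-895602, minus strand): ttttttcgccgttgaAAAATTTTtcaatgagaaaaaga

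A run of T or A followed the core in several of these promoters, so the base composition was set beside the count. The 37 windows had a GC content of 34.6% and all windows one of 35.6%. The same letters in swapped order, TTTTAAAA, were found in 2 of the 37 promoters (5.41%) and in 3.57% of all. The core was present in 13 of 21 genes of cytosolic aminoacyl-tRNA synthetases (61.9%). It was also in 13 of 30 other genes of translation (43.3%), a list of further factors, regulators and modifying enzymes. By contrast, 9 of 137 cytosolic ribosomal protein genes (6.57%) and 0 of 8 mitochondrial factors held it. Within the 37, it was found in 7 of 9 elongation genes but in 1 of 5 eIF2B genes. A match is a stretch of letters and not a shown binding site.

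**Figure D1:**
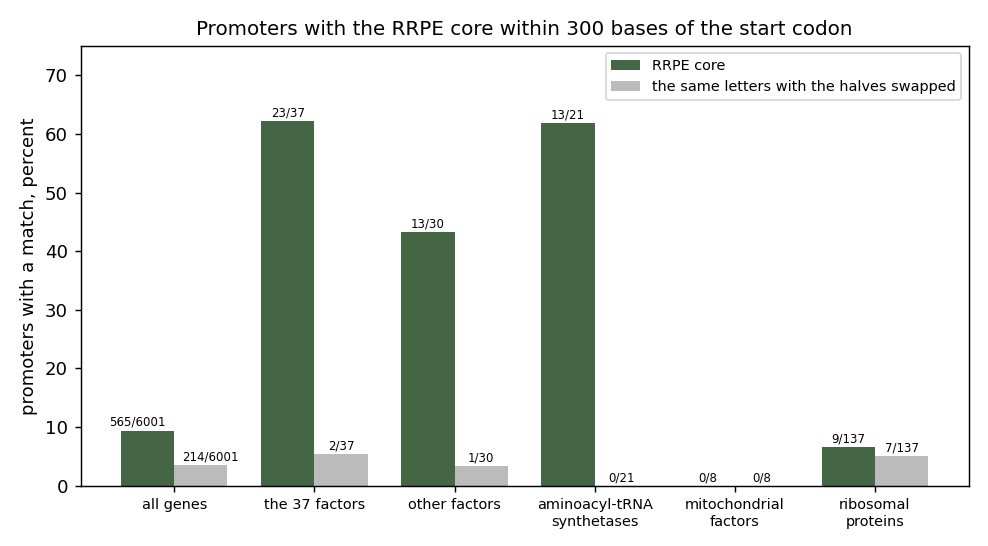
Share of promoters (y axis, percent) with AAAATTTT or with TTTTAAAA (grey) in the 300 bases before the start codon, for all protein-coding genes and for 5 lists (x axis), with counts above the bars. The 37 factors and the aminoacyl-tRNA synthetases stand at 62.2% and 61.9%, against 9.42% of all genes.

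The PAC, Gcn4 and Rap1 elements were searched on both strands of the same windows. PAC (GATGAG), a companion of RRPE in ribosome biogenesis genes, was found in 8 of the 37 promoters (21.6%) and in 19.1% of all promoters. The Gcn4 site TGACTC and the Rap1 site ACCCNNACA, the latter known from ribosomal protein genes, were found in 0 of the 37, against 7.77% and 3.12% of all promoters. In windows of 500 bases, 2 of the 37 held each of these sites (5.41%), against 12.7% of all promoters for Gcn4 and 5.47% for Rap1. Of 137 ribosomal protein promoters, 22 held the Rap1 letters within 300 bases (16.1%) and 54 within 500 bases (39.4%). Most promoters of that class thus lack these letters, and their absence does not show that Rap1 is not bound. No RRPE match shared a base with a match of another of these elements. The 23 genes with the RRPE core had a median log2 fold change of 0.03 between auxin- and mock-treated cultures and the other 14 one of 0.02. Of the 23, 8 passed the test as higher and 9 as lower, against 38.5% of all features each way.

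The sequencing gave between 110119744 and 125303818 counts per culture, and 6397 features were tested. These totals were several times the mapped read pairs that the study's text gives, a gap whose source was not tested, so a count is not taken here as a read pair or a molecule. Of the 6397 tested features, 4927 (77.0%) passed an adjusted p of 0.05 in edgeR's quasi-likelihood test, 38.5% being higher and 38.5% lower upon Rio1 depletion. Levels are given as CPM, counts per 1000000 of a total scaled by TMM, a method that sets the bulk of genes as unchanged. With scaling by the total alone, the median of all genes moved up by 0.25 on the log2 scale, and 64.6% of features were then higher and 16.8% lower. The values are relative to the RNA sequenced, and a change in the RNA content of a cell cannot be told apart from them. *RIO1* mRNA was at 21.5 ± 1.53 CPM in mock-treated and 41.0 ± 1.67 CPM in auxin-treated cultures (SD, n = 3), which does not check the depletion, as it is the protein that is degraded. The strain is *MATa* per the study's strain list. Of the markers for a cells, *STE2* was at 699 ± 22.9 CPM with the mock. Of 4 markers for alpha cells, *MFalpha1*, *MFalpha2* and *STE3* were at 0.666 ± 0.147, 0.478 ± 0.039 and 1.43 ± 0.180 CPM, while *SAG1* was at 42.9 ± 0.629 CPM.

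All 37 factor mRNAs were abundant enough to be tested, with at least 6779 counts in every culture. Upon Rio1 depletion, 13 of them (35.1%) were higher and 15 (40.5%) lower at an adjusted p of 0.05, against the 38.5% of all features in each direction, and their median log2 fold change was 0.03. The changes were small. Past a log2 fold change of 0.5 in size there were 1 gene that rose (2.7%, against 17.4% of all features) and 2 that fell (5.41%, against 10.3%), and none of the 37 was past 1, where 10.3% of all features lay. None was past 1 either in edgeR's test against that threshold (glmTreat), which called 344 of the 6397 features. The test against no change was passed by 28 (75.7%, against 77.0% of all features). In 30 of the 37 genes (81.1%, against 78.6% of all features) no auxin-treated culture lay within the range of the mock-treated ones or the reverse, referred to here as no overlap. By role, 8 of the 9 elongation genes fell and 0 rose (5 fell and 2 rose with total-count scaling). Of the 8 genes of eIF2 and eIF2B, 6 rose and 0 fell (8 and 0 with total-count scaling). With total-count scaling 64.6% of all features were higher and 16.8% lower.

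How much of this depends on the scaling can be stated gene by gene. Under total-count scaling 25 of the 37 were higher (67.6%, against 64.6% of all features) and 7 lower (18.9%, against 16.8%). Under each of 6 scalings and tools, the same 13 genes were called higher (*SUP35*, *SUP45*, *TIF5*, *FUN12*, *SUI2*, *GCD11*, *GCD7*, *GCD1*, *GCD2*, *GCD6*, *TIF34*, *TIF35* and *GCN2*) and the same 7 lower (*TEF2*, *CAM1*, *EFT1*, *EFT2*, *YEF3*, *PAB1* and *STM1*). The other 8 called lower with TMM (*TEF1*, *EFB1*, *HYP2*, *TIF1*, *TIF2*, *TIF4632*, *SUI1* and *RPG1*) fell relative to the bulk of genes only. With total-count scaling *HYP2* (0.10, edgeR adjusted p = 0.0069), *TIF1* (0.09, edgeR adjusted p = 0.018) and *RPG1* (0.06, edgeR adjusted p = 0.021) were called higher, and the other 5 were not called.

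**Figure D2:**
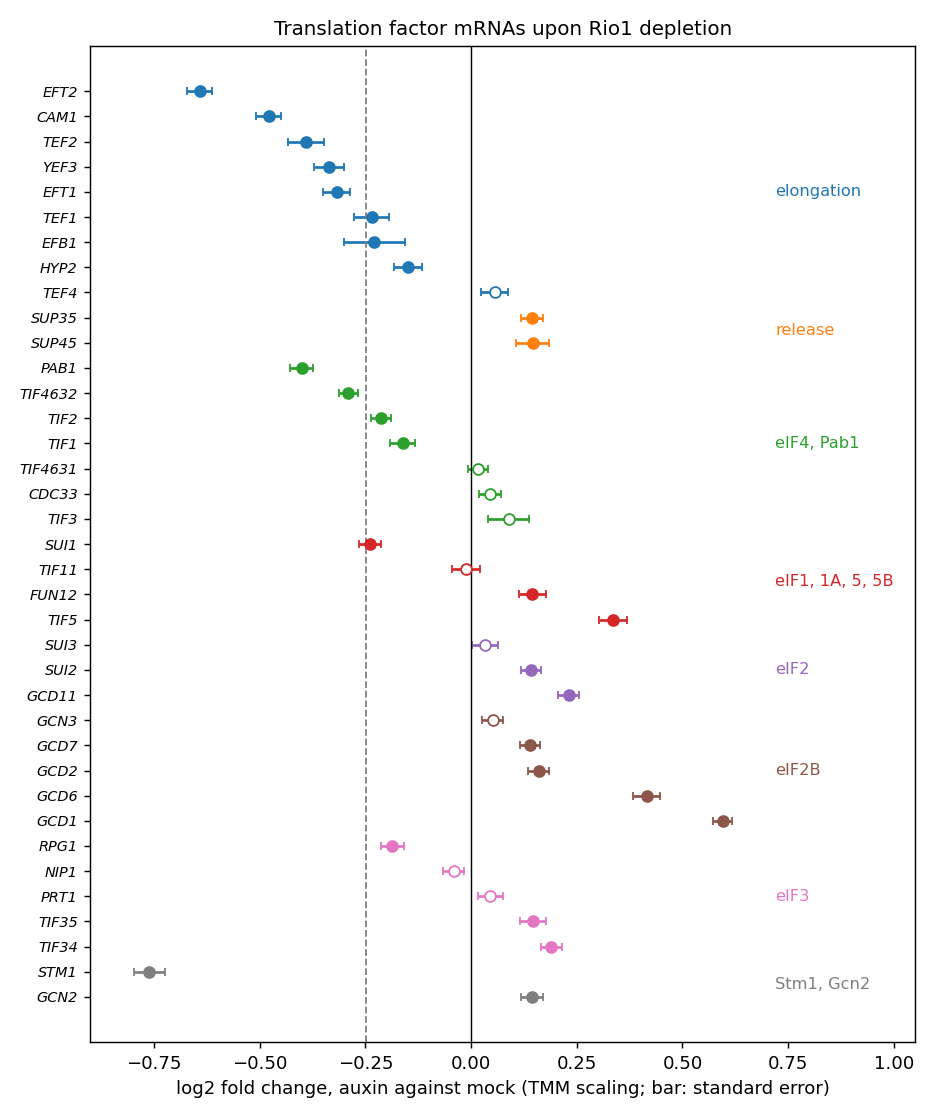
Log2 fold change (x axis, auxin- against mock-treated cultures, TMM scaling) of the 37 genes, grouped by role, with the standard error as bars and filled points for an adjusted p of at most 0.05. The dashed line marks where no change would lie under total-count scaling. The elongation genes other than *TEF4* sit below 0, of which *TEF1*, *EFB1* and *HYP2* lie above the dashed line, and the eIF2 and eIF2B genes sit above both.

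Elongation factor genes held 7 of the 10 highest levels per kb of coding sequence. With TMM scaling 8 of the 9 fell, against 38.5% of all features, and 5 of them also with total-count scaling, against 16.8%. Of these 9 genes, 4 form pairs of near-identical copies, as do the eIF4A genes among the initiation factors. *TEF1* (YPR080W) and *TEF2* (YBR118W) both encode eEF1A, which brings the aminoacyl-tRNA to the ribosome, and their coding sequences were 99.9% identical, with 2 mismatches in 1377 bases. *EFT1* (YOR133W) and *EFT2* (YDR385W) both encode eEF2, which moves the ribosome by a codon, and were 99.8% identical, with 4 mismatches in 2529 bases. *TIF1* (YKR059W) and *TIF2* (YJL138C), for the initiation factor eIF4A, had 6 mismatches in 1188 bases. A 60-base stretch of each coding sequence is printed to show how little there is to tell the copies apart, with mismatches in capitals (RefSeq, positions counted from the A of the start codon).
*TEF1*, 703 to 762: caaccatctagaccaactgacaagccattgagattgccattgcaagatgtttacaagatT
*TEF2*, 703 to 762: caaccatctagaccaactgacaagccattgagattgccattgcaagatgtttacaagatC
*EFT1*, 388 to 447: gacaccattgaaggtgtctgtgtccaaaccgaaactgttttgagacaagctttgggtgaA
*EFT2*, 388 to 447: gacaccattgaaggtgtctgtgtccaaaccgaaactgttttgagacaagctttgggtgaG
*TIF1*, 169 to 228: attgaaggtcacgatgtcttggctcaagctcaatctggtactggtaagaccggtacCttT
*TIF2*, 169 to 228: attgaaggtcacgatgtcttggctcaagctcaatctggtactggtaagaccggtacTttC
Of all stretches of 100 bases, the read length, 86.5% were the same in *TEF1* and *TEF2*, 83.5% in *EFT1* and *EFT2*, and 74.1% in *TIF1* and *TIF2*. The study's methods name STAR's GeneCounts option and do not say how reads that match both copies were counted. The values of these 6 genes are thus uncertain one by one, and the sums of each pair are given as well. If such reads were left out, both the single values and the sums would be too low.

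*EFT2* (chrIV:1243230-1245758) fell the most among the elongation genes. It was at 2571, 2692 and 2603 CPM in mock-treated cultures and at 1668, 1661 and 1712 CPM in auxin-treated cultures. The groups did not overlap, and the level fell by 0.64 ± 0.029 on the log2 scale (± standard error here and for every log2 fold change; edgeR adjusted p = 3.9e-08). Its copy *EFT1* (chrXV:575098-577626) went from 1232, 1309 and 1282 CPM to 1006, 1003 and 1058 CPM. This was a smaller drop, by 0.32 ± 0.033 (edgeR adjusted p = 1.2e-05), again without overlap. Summed, eEF2 mRNA dropped from 3896 ± 99.3 to 2703 ± 58.3 CPM (SD, n = 3), a log2 fold change of -0.53 ± 0.031 (edgeR adjusted p = 2.4e-07).

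For eEF1A, *TEF2* had 3192, 3519.7 and 3316 CPM with the mock and 2506, 2479.9 and 2662 CPM with auxin. All auxin-treated cultures were below all mock-treated ones, and the level fell by 0.39 ± 0.043 (edgeR adjusted p = 1.9e-05). *TEF1* had 2373, 2646 and 2466 CPM with the mock and 2109, 2076 and 2176 CPM with auxin. It fell by 0.23 ± 0.041 (edgeR adjusted p = 0.00053), a change that was 0.01 under total-count scaling. The sum of both genes was 5837 ± 304 CPM in mock-treated and 4669 ± 149 CPM in auxin-treated cultures (log2 fold change -0.32 ± 0.043, edgeR adjusted p = 8.2e-05).

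*YEF3* (YLR249W, chrXII:636780-639914) encodes eEF3, the ATPase that fungal ribosomes need in elongation, and came next to *HYP2* in level per kb. Its values were 11955, 12756 and 12143 CPM with the mock and 9667, 9762 and 9764 CPM with auxin. The level fell by 0.34 ± 0.036 (edgeR adjusted p = 1.6e-05) without overlap of the groups. *HYP2* (YEL034W) encodes eIF5A, which carries the amino acid hypusine and relieves ribosomes stalled at prolines. It went from 2009.6, 2148 and 2067 CPM to 1893, 1812 and 1909 CPM, and fell by 0.15 ± 0.034 (edgeR adjusted p = 0.0027), with a value of 0.10 under total-count scaling.

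eEF1B, the exchange factor that reloads eEF1A with GTP, has a catalytic subunit encoded by *EFB1* (YAL003W) and a gamma subunit encoded by *TEF4* (YKL081W) and *CAM1* (YPL048W). These genes did not move alike. *CAM1* was at 349, 363 and 337 CPM with the mock and at 247, 254 and 252 CPM with auxin, and fell by 0.48 ± 0.030 (edgeR adjusted p = 3.3e-07). *TEF4*, the more abundant of the gamma subunit genes, had 2170.3, 2312 and 2176 CPM with the mock and 2309, 2322 and 2290.5 CPM with auxin. Its groups overlapped and the difference did not pass the test (log2 fold change 0.06 ± 0.031, edgeR adjusted p = 0.13). *EFB1* had 1283, 1445 and 1539.6 CPM with the mock and 1144, 1166 and 1332 CPM with auxin. Its groups overlapped too, and the drop by 0.23 ± 0.072 (edgeR adjusted p = 0.016) was no longer called without auxin replicate 1, mock replicate 2 or auxin replicate 2 (edgeR adjusted p = 0.066, 0.058 and 0.055). Each auxin-treated culture was below the mock-treated one of the same number. With the number as a block in the fit, the log2 fold change was -0.23 (edgeR adjusted p = 1.5e-05). Introns of *EFB1* and *TEF4* hold the snoRNA genes *snR18* and *snR38*, the former listed at 0 counts and the latter at 1.97 ± 0.271 CPM with the mock and 2.93 ± 0.305 CPM with auxin. No other annotated gene overlapped any of the 37.

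**Figure D3:**
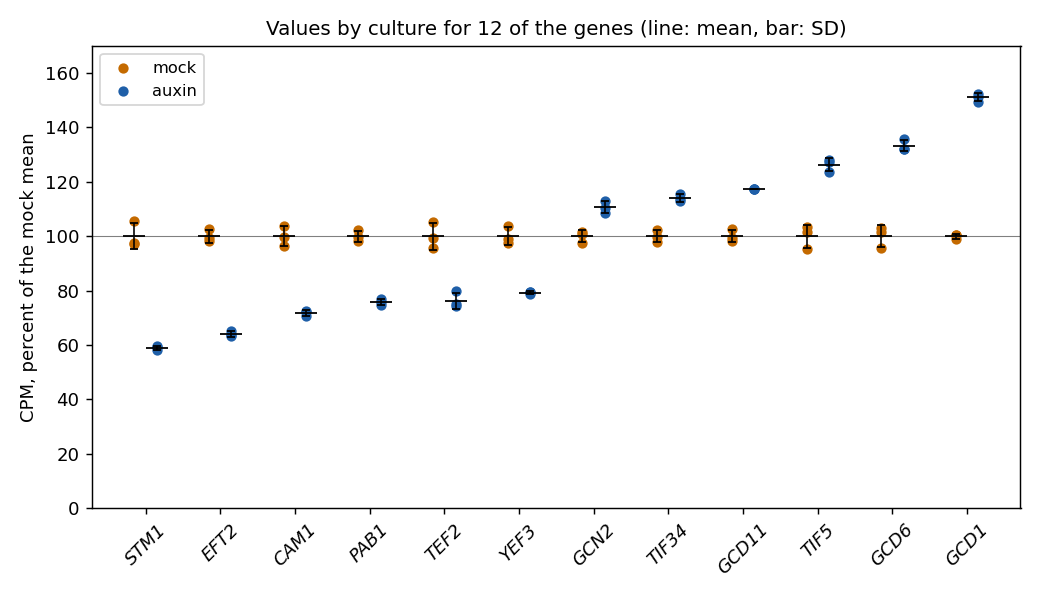
CPM of 12 of the genes in each culture (y axis, percent of the mean of the 3 mock-treated cultures; points are cultures, lines means and bars SD). The 12 were picked for the figure from genes that passed the test, and none with overlapping groups is shown, from *STM1* at the low end to *GCD1* at the high end. Of all 37, the groups did not overlap in 30 (81.1%, against 78.6% of all features).

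Both release factor genes rose, by like amounts and under each scaling. *SUP35* (YDR172W) encodes eRF3, the GTPase that can switch to the prion form [PSI+], and was at 513, 517 and 534 CPM with the mock and at 573, 568 and 588 CPM with auxin. Its log2 fold change was 0.14 ± 0.026 (edgeR adjusted p = 0.00066). *SUP45* (YBR143C), for eRF1, which reads the stop codons, was at 326, 348 and 359 CPM with the mock and at 377, 371 and 394 CPM with auxin (log2 fold change 0.15 ± 0.038, edgeR adjusted p = 0.0061). In neither gene did the groups overlap, and per kb of coding sequence the level of both was close, with 253 ± 5.58 CPM for *SUP35* and 262 ± 12.9 CPM for *SUP45* in mock-treated cultures.

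Among the genes of the eIF4 factors and Pab1, 4 of 7 fell (57.1%) and 0 rose with TMM scaling, against 38.5% of all features each way. Only *PAB1* was still lower under total-count scaling, where 4 were called higher (57.1%, against 64.6% of all features). *PAB1* (YER165W, chrV:510373-512106) encodes the protein that coats the poly(A) tail and binds eIF4G. It was at 2287, 2377 and 2317 CPM with the mock and at 1737, 1787 and 1765 CPM with auxin. The level fell by 0.40 ± 0.027 (edgeR adjusted p = 6.6e-07), and the highest auxin-treated culture was well below the lowest mock-treated one. *TIF4632* (YGL049C), the minor of the 2 genes for the scaffold eIF4G, went from 227, 223 and 223 CPM to 184, 185 and 181 CPM, and fell by 0.29 ± 0.023 (edgeR adjusted p = 1.6e-06). The major gene *TIF4631* (YGR162W) stayed between 1040.4 and 1066 CPM in all 6 cultures (log2 fold change 0.02 ± 0.024, edgeR adjusted p = 0.53). Of the eIF4A genes, *TIF1* fell by 0.16 ± 0.029 (edgeR adjusted p = 0.00062) and *TIF2* by 0.21 ± 0.024 (edgeR adjusted p = 2.3e-05), and their sum went from 1589 ± 19.1 CPM with the mock to 1388 CPM with auxin (log2 fold change -0.20 ± 0.024). With total-count scaling *TIF1* was at 0.09 and *TIF2* at 0.04. *CDC33* (YOL139C) for the cap-binding protein eIF4E and *TIF3* (YPR163C) for eIF4B did not pass the test. *CDC33* was at 478 ± 11.1 CPM with the mock and 493 ± 6.14 CPM with auxin (edgeR adjusted p = 0.14), and *TIF3* at 359.9 ± 21.7 CPM and 383 ± 20.2 CPM (edgeR adjusted p = 0.12).

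The factors that act with the small subunit on the way to the start codon moved in both directions with TMM scaling. *TIF5* (YPR041W, chrXVI:648704-649921) encodes eIF5, which makes eIF2 hydrolyse its GTP at the start codon, and was at 286, 310.0 and 305 CPM with the mock and at 382, 371 and 384 CPM with auxin. It rose by 0.34 ± 0.033 (edgeR adjusted p = 9.2e-06). *SUI1* (YNL244C) encodes eIF1, which guards against the wrong start codon and opposes eIF5 there. It went the other way, from 138, 144 and 144 CPM to 122, 119.9 and 119 CPM, and fell by 0.24 ± 0.026 (edgeR adjusted p = 2.1e-05), a difference of 0.01 with total-count scaling. The log2 ratio of *TIF5* to *SUI1*, which no scaling touches, was 1.08 ± 0.027 in mock-treated and 1.66 ± 0.034 in auxin-treated cultures (SD, n = 3). The pair sets the highest log2 fold change of this group against the lowest, so that a shift followed from its choice. *FUN12* (YAL035W) for eIF5B, the GTPase that joins the subunits, had 1037, 1102 and 1019 CPM with the mock and 1175, 1162 and 1156 CPM with auxin (log2 fold change 0.14 ± 0.032, edgeR adjusted p = 0.0023). *TIF11* (YMR260C) for eIF1A was at 230.2 ± 6.92 CPM and 228 ± 8.46 CPM and did not pass the test (edgeR adjusted p = 0.77).

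In eIF2 and its exchange factor eIF2B, as in the release factors, every gene that passed the test rose, with TMM and with total-count scaling. Of eIF2, *GCD11* (YER025W), for the gamma subunit that binds GTP and the initiator tRNA, was at 561, 586 and 567 CPM with the mock and at 671, 669.9 and 671 CPM with auxin. It rose by 0.23 ± 0.025 (edgeR adjusted p = 1.6e-05). *SUI2* (YJR007W) encodes the alpha subunit, which Gcn2 phosphorylates. It went from 403, 400.0 and 394 CPM to 444, 443 and 434 CPM (log2 fold change 0.14 ± 0.023, edgeR adjusted p = 0.00029). The beta subunit gene *SUI3* (YPL237W) was at 222 ± 6.38 CPM and 227 ± 7.14 CPM, with overlapping groups (edgeR adjusted p = 0.35).

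Of the eIF2B genes, 4 of 5 rose (80.0%, against 38.5% of all features). *GCD1* (YOR260W, chrXV:813984-815720), for the gamma subunit of its catalytic part, rose the most of all 37. It was at 247, 246 and 243 CPM with the mock and at 371, 374 and 367 CPM with auxin, a log2 fold change of 0.60 ± 0.022 (edgeR adjusted p = 1.1e-08), with an SD of 2.23 CPM in mock-treated and 3.61 CPM in auxin-treated cultures. *GCD6* (YDR211W, chrIV:884727-886865) encodes epsilon, the other subunit of the catalytic part, and came next, from 179, 193 and 190.1 CPM to 247, 248 and 255 CPM (log2 fold change 0.42 ± 0.031, edgeR adjusted p = 1.4e-06). The subunits of the regulatory part, alpha, beta and delta, changed less. *GCD2* (YGR083C) for delta went from 184, 191 and 186 CPM to 211, 206 and 209 CPM (log2 fold change 0.16 ± 0.024, edgeR adjusted p = 0.00019). *GCD7* (YLR291C) for beta went from 133, 129 and 131 CPM to 143, 143 and 147 CPM (log2 fold change 0.14 ± 0.024, edgeR adjusted p = 0.00047). *GCN3* (YKR026C) for alpha, the subunit yeast can grow without, was at 66.7, 66.4 and 66.6 CPM with the mock and 68.8, 67.8 and 70.3 CPM with auxin. These values did not overlap, but the difference missed the threshold (log2 fold change 0.05 ± 0.024, edgeR adjusted p = 0.081). The log2 ratio of *GCD1* to *GCN3* moved from 1.88 ± 0.014 to 2.43 ± 0.040 (SD, n = 3), without overlap. These genes had the highest and the lowest log2 fold change of eIF2B, so that a shift followed from the choice of the pair.

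Of the 5 genes of eIF3, the scaffold of the initiation complex, 2 rose (40.0%) and 1 fell (20.0%) with TMM scaling, against 38.5% of all features each way. With total-count scaling all 5 were called higher, as were 64.6% of all features. *RPG1* (YBR079C) encodes the largest subunit, eIF3a. It was at 1081, 1143 and 1089 CPM with the mock and at 968, 968 and 975 CPM with auxin. The level fell by 0.19 ± 0.028 (edgeR adjusted p = 0.00018), with the opposite call under total-count scaling (0.06, edgeR adjusted p = 0.021). *TIF34* (YMR146C, eIF3i) and *TIF35* (YDR429C, eIF3g), which bind each other, rose under both scalings. *TIF34* went from 409, 417 and 428 CPM to 475, 472 and 483 CPM (log2 fold change 0.19 ± 0.025, edgeR adjusted p = 7.5e-05), and *TIF35* from 232, 245 and 253 CPM to 269, 269 and 271 CPM (log2 fold change 0.15 ± 0.031, edgeR adjusted p = 0.0018). *PRT1* (YOR361C, eIF3b) at 697 ± 22.1 CPM and 720.0 ± 10.8 CPM did not pass the test with TMM (edgeR adjusted p = 0.17), nor did *NIP1* (YMR309C, eIF3c) at 882 ± 4.74 CPM and 857 ± 16.4 CPM (edgeR adjusted p = 0.15). Relative to *RPG1*, *TIF34* gained 0.38 on the log2 scale, the pair being the lowest and the highest log2 fold change of eIF3.

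*STM1* and *GCN2* act on translation from outside these complexes. *STM1* (YLR150W, chrXII:440467-441288) encodes a protein that binds in the mRNA channel of idle ribosomes and preserves them, and it showed the largest change of the 37 with TMM scaling (-0.51 with total-count scaling, where *GCD1*, *GCD6* and *TIF5* at 0.84, 0.66 and 0.58 were larger in size). It was at 2623, 2847 and 2617 CPM with the mock and at 1569, 1607 and 1596 CPM with auxin, and fell by 0.76 ± 0.037 (edgeR adjusted p = 5.7e-08). The lowest mock-treated culture, at 2617 CPM, was far above the highest auxin-treated one, at 1607 CPM. *GCN2* (YDR283C), the kinase of eIF2 alpha, had 158, 157 and 152 CPM with the mock and 176, 172 and 169 CPM with auxin (log2 fold change 0.14 ± 0.026, edgeR adjusted p = 0.00064). *GCN4*, the transcription factor whose translation increases when eIF2 is phosphorylated, was at 1358 ± 37.0 CPM with the mock and at 1047 ± 26.2 CPM with auxin, and its mRNA fell by 0.37 ± 0.030 (edgeR adjusted p = 2.2e-06). The counts do not measure its translation.

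Per kb of coding sequence, the levels of the 37 mRNAs in mock-treated cultures spanned from 31.3 ± 0.662 CPM for *GCN2* to 4377 ± 146 CPM for *HYP2* (SD, n = 3). *HYP2*, *YEF3*, *STM1*, *TEF2* and *EFB1* led the order, all at or above the 98.6th percentile of the tested coding genes, while *GCN2* stood at the 42.2nd. The place of the near-identical copies in this order is uncertain, as reads that match both copies may not have been counted. The median was 1812 CPM per kb for the elongation genes, 361 for eIF2, 362 for eIF3, 258 for the release factors and 95.5 for eIF2B. Subunits of a complex had like levels, the highest eIF3 mRNA being 1.36 times the lowest and the highest eIF2B mRNA 1.95 times the lowest. The eIF4 genes with *PAB1* ranged over 16.4 times. In auxin-treated cultures the range within eIF2B was 2.84 times.

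Level and change were related as follows. Across the 37 genes, Spearman's rho between the mock level per kb and the log2 fold change was -0.626 and Pearson's r with the log of the level -0.594, and without the 6 genes of near-identical pairs they were -0.527 and -0.551. Across the 5835 tested coding genes the values were -0.301 and -0.426. These are correlations across genes that share libraries and are given as a description. Of the 10 genes with the highest levels, 9 were called lower and 0 higher with TMM scaling, against 38.5% of all features each way, and their median log2 fold change was -0.29. Among the other 27, 13 were called higher and 6 lower, with a median of 0.09. With total-count scaling, against 64.6% of all features higher and 16.8% lower, the 10 had 5 lower and 2 higher (median -0.04) and the 27 had 2 lower and 23 higher (median 0.34). The split at 10 was chosen after the values were seen, and it rests in part on the uncertain levels of near-identical copies.

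**Figure D4:**
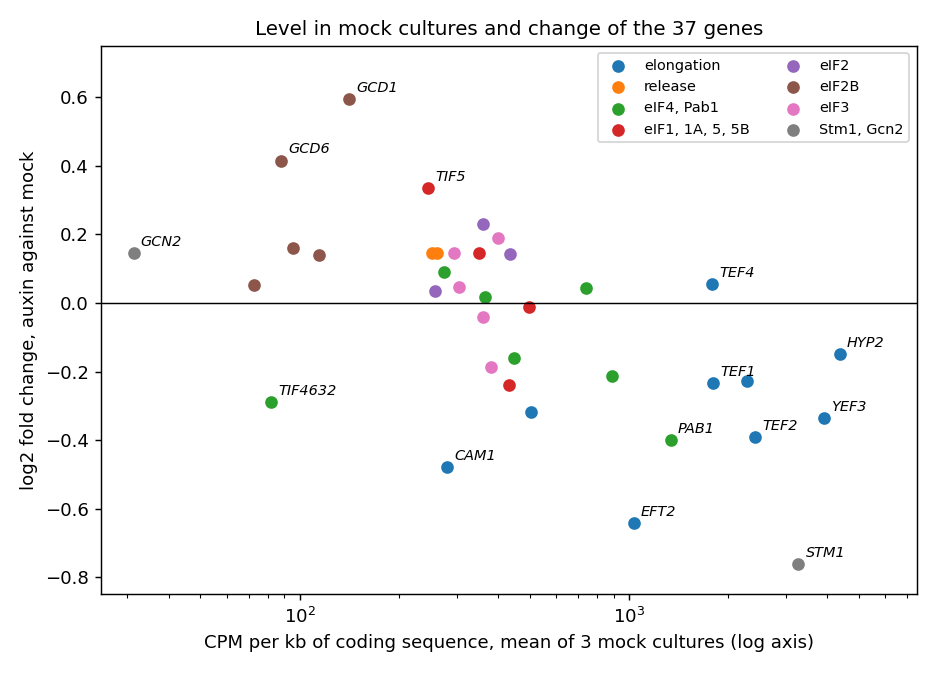
Level in mock-treated cultures (x axis, CPM per kb of coding sequence, log axis) against the log2 fold change (y axis, TMM scaling) of the 37 genes, coloured by role. The 10 most abundant mRNAs lie below 0 with the exception of *TEF4*, though total-count scaling calls only 5 of them lower, and the eIF2B genes lie at low levels above 0.

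As a share of all counts, the 37 mRNAs came to 4.12% ± 0.069 in mock-treated and 4.17% ± 0.044 in auxin-treated cultures (SD, n = 3), a difference within the SD of the former. The share of the 137 ribosomal protein mRNAs went from 13.7% ± 0.434 to 8.20% ± 0.122 in the same cultures. Of the counts outside ribosomal protein genes, the 37 took 4.78% ± 0.102 and 4.55% ± 0.054. Within the set, the elongation genes took 2.58% ± 0.058 and 2.48% ± 0.039 of all counts, and those of eIF2B 0.0750% ± 0.00048 and 0.114% ± 0.00074.

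The ratio between paralogous genes asks whether copies with the same or a related product moved together. A ratio within a culture does not depend on the scaling. With 3 cultures against 3, an exact two-sided permutation test cannot go below p = 0.1, and over 7 pairs the smallest adjusted value was 0.117, so no pair could reach 0.05. In 6 of 7 pairs the ratios of the groups did not overlap, at this smallest p. *EFT1* gained 0.32 on the log2 scale over *EFT2*, *TEF1* gained 0.16 over *TEF2*, *TIF4631* gained 0.31 over *TIF4632*, and *TEF4* gained 0.53 over *CAM1*. *TEF4* made up 86.4% ± 0.219 of the counts of its pair with the mock and 90.2% ± 0.130 with auxin. The *TIF1* to *TIF2* ratio moved by 0.05, with overlapping groups (exact p = 0.3, adjusted 0.3).

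The other 2 pairs set an abundant gene against a scarce copy. *ANB1* (YJR047C) is the form of eIF5A that yeast uses when oxygen is scarce, and *HEF3* (YNL014W) is a second gene for eEF3. Their coding sequences were far enough from those of *HYP2* (90.9% identity) and *YEF3* (74.5%) that no stretch of 100 bases was shared. The longest identical run was 43 bases for *HYP2* and *ANB1*. The same 60 bases of these 2 genes, picked for their many mismatches (10), are printed with mismatches in capitals (RefSeq).
*HYP2*, 274 to 333: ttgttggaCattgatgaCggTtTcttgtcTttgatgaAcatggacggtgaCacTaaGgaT
*ANB1*, 274 to 333: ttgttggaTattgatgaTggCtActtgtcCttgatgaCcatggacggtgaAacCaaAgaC
*ANB1* rose from 1.37 ± 0.051 to 2.54 ± 0.123 CPM (log2 fold change 0.90 ± 0.093, edgeR adjusted p = 1.3e-05), and *HEF3* from 7.88 ± 0.403 to 14.7 ± 1.03 CPM (0.90 ± 0.064, edgeR adjusted p = 8.3e-07). *HYP2* fell by 1.04 against *ANB1* on the log2 scale and *YEF3* by 1.24 against *HEF3* (exact p = 0.1 and adjusted 0.117 for each). *HYP2* made up 99.9% of the counts of its pair in both groups, and *YEF3* 99.9% with the mock and 99.8% with auxin.

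**Figure D5:**
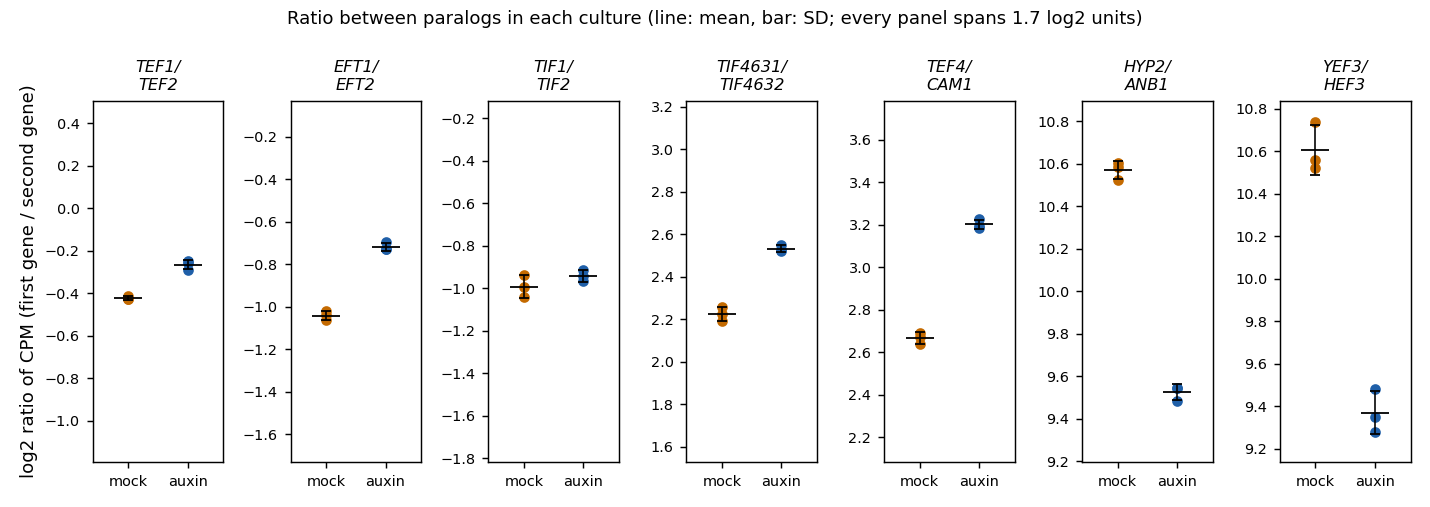
Log2 ratio of CPM between the genes of 7 paralogous pairs (y axis) in each culture, mock or auxin (x axis), with means and SD, every panel spanning the same range. The groups overlap only in *TIF1* to *TIF2*, and the ratios of *HYP2* to *ANB1* and of *YEF3* to *HEF3* fell by 1.04 and 1.24.

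Other genes of the translation machinery moved in different ways. Of all features, 38.5% were called higher and 38.5% lower with TMM scaling, and 64.6% higher and 16.8% lower with total-count scaling. Of 30 further genes of translation (factors, regulators and modifying enzymes), 19 rose and 8 fell. Their median log2 fold change was 0.15, with 24 higher and 0 lower under total-count scaling. *ANB1* and *HEF3* were the highest, and *TMA20* (-0.28 ± 0.057) and *TMA22* (-0.24 ± 0.045), whose products help recycle the small subunit, the lowest. Of 21 cytosolic aminoacyl-tRNA synthetases, 13 fell and 3 rose with TMM scaling, while 4 were lower and 13 higher with total-count scaling. *DED81* for asparagine (-0.49 ± 0.028) and *DPS1* for aspartate (-0.41 ± 0.030) were the lowest, and *TYS1* for tyrosine (0.17 ± 0.028) and YDR341C for arginine (0.09 ± 0.027) the highest. Of the 137 ribosomal protein genes, 134 were lower under TMM scaling and 132 under total-count scaling, with a median of -0.99. *RPS3* (-1.78 ± 0.066) and *RPL7B* (-1.55 ± 0.029) were the lowest of these, and *RPL18B* and *RPL15B* the highest at 0.08 each and not called with TMM, though both were called higher with total-count scaling. None of the 37 factors, the lowest being *STM1*, reached that median.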

How the data were processed

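RNA from 3 mock- and 3 auxin-treated cultures was depleted of rRNA by the authors, made into directional libraries and sequenced in paired-end mode with reads of 100 bases. The authors trimmed reads with Trimmomatic, aligned them with STAR to assembly R64 (sacCer3) and deposited the raw counts per gene that STAR gives, without normalization. STAR was set to output 1 alignment per read, and reads were assigned to genes with its GeneCounts option. The annotation release, the counting of reads that match several genes and the handling of the molecular identifiers in the adaptors are not given in the sources used here. Columns were assigned to cultures by their names, the digit being the repeat and the letter a standing for auxin, and 0 columns were left unused.

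Counts were tested with edgeR 4.0.16 in R 4.3.3 (filterByExpr, TMM, glmQLFit, glmQLFTest, Benjamini-Hochberg adjustment over all 6397 tested features). The common biological coefficient of variation was 3.78%, and log2 fold changes of the 37 genes had a median standard error of 0.029. These standard errors were derived from the test, as the size of the log2 fold change over the square root of its F value. Replicates differed beyond counting noise (chi-square per degree of freedom between 6.33 and 34.7), so no cultures were merged. Alternatives tried were scaling by total counts, upper quartile, RLE, or TMM without the 37 and the ribosomal protein genes. DESeq2 1.42.0, glmTreat, other filters, a replicate block and fits without 1 culture at a time were also run. The code was tested on simulated data. Coordinates, coding sequences and promoters were read from RefSeq (R64), in which all 37 genes were matched by locus tag. The named genes were all 37, *RIO1*, *GCN4*, *ANB1*, *HEF3* and the pair of highest and the pair of lowest genes of each further list. Ribosomal protein genes were those named RPL, RPS, RPP0, RPP1A, RPP1B, RPP2A or RPP2B, *RPP1* being an RNase P gene. The members and lists were chosen with earlier results of these data known.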

Additional observations from a re-analysis of the deposited data

How the results depend on the processing

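With total-count scaling, 25 of the 37 genes were higher and 7 lower, against 64.6% and 16.8% of all features. Their median log2 fold change was 0.28, and 4 of 8 mitochondrial factors were called (50.0%, against 81.3% of all features). The direction changed there for *TEF1* (0.01), *EFB1* (0.020), *HYP2* (0.10), *TIF1* (0.086), *TIF2* (0.036), *SUI1* (0.010), *TIF11* (0.24), *RPG1* (0.062) and *NIP1* (0.21), and *TIF4632* (-0.04) was no longer called. The shift of all genes by 0.25 is part of that scaling. *TIF11*, close to 0 throughout, also changed direction with upper-quartile scaling (0.0020) and with a minimum of 10 counts in every culture (0.0038), and ranged from -0.042 to 0.017 when each culture was left out in turn. *GCN3* passed the test under the same pair of settings (adjusted p = 0.043 and 0.031), and *TEF4* without mock replicate 2 (0.08, adjusted p = 0.0080). With RLE scaling, TMM without the 37 and the ribosomal protein genes, DESeq2 or no filter, all 37 genes kept their direction and call. Against a log2 fold change of 1, glmTreat called 344 features. The test against no change, with a cut at 1 on the estimated size, called 657. The former asks whether a change is larger than 1 and is the stricter of these by design. Outside ribosomal protein genes the 37 took 4.78% of counts with the mock and 4.55% with auxin. In windows of 500 bases, chosen after seeing the data as was the swapped RRPE core, 2 of the 37 genes held the Rap1 site (5.41%, against 5.47% of all promoters), 13 PAC (35.1%, against 28.2%), 2 the Gcn4 site (5.41%, against 12.7%) and 24 the RRPE core (64.9%, against 12.4%). The sample titles number the repeats alike in both groups. Same-numbered cultures correlated at 0.162, -0.0295 and 0.245, and each culture but mock repeat 2 and auxin repeat 2 correlated best with its own number. These few values cannot decide whether the numbers mark pairs, and the main test left the numbers out. With the number as a block, 5159 of all features passed the test, against 4927 without it. The replicate block changed 1 of 37 calls, that of *TIF3* (0.09, adjusted p = 0.014).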

Other observations

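Genes for enzymes that modify elongation factors were among the further genes of translation. eEF2 carries diphthamide, and *DPH1*, *DPH2* and *DPH5*, which encode enzymes of its synthesis, rose (log2 fold changes 0.57 ± 0.024, 0.59 ± 0.027 and 0.41 ± 0.039) under TMM and total-count scaling. *DPH2* was at 171 ± 4.10 CPM with the mock and at 257 ± 4.98 CPM with auxin. eIF5A carries hypusine, made by the products of *DYS1* and *LIA1*. *LIA1* rose by 0.36 ± 0.029, while *DYS1* had a log2 fold change of -0.18 ± 0.035 with TMM and of 0.07 with total-count scaling. These genes, part of the list of 30 further genes of translation, were named after their values were seen.

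Of 8 mitochondrial translation factors, 6 fell and 1 rose with TMM scaling, where 38.5% of all features went each way. With total-count scaling 1 fell and 3 rose, where 16.8% of all features were lower and 64.6% higher. *TUF1* for the mitochondrial elongation factor Tu fell by 0.37 ± 0.036 with TMM and *MRF1* for a release factor by 0.32 ± 0.029, whereas *MEF2*, a gene of the mitochondrial elongation factor G family, rose from 46.4 ± 0.233 to 70.6 ± 0.653 CPM (log2 fold change 0.60 ± 0.024, edgeR adjusted p = 1.7e-08).

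Across all genes, 557 tested genes with the RRPE core had a median log2 fold change of 0.25, and the genes without it one of -0.05. Of the 557, 364 were called higher and 116 lower, against 38.5% of all features each way. With the swapped letters the medians were 0.01 and -0.03. The 37 factor genes had the core more often and a median of 0.03 with it.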
